A study of Mus musculus with 12 samples.

Results

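The miRNAs described here are named miR-297, miR-466, miR-467 and miR-669, and most of their hairpins lie in a block of repeats inside an intron of the mouse gene Sfmbt2. Every entry of the deposited miRNA table with one of these names was taken, whatever its letter, copy number, star or arm suffix, which gave 54 of the 689 entries. The miR-297 subfamily had 6 entries, miR-466 had 20, miR-467 had 12 and miR-669 had 16.

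The RNA came from mouse embryonic stem cells, kept on gelatin with leukemia inhibitory factor, in which doxycycline switches on HA-Flag-AGO2, an Argonaute protein with 2 tags. AGO2 was pulled down with the anti-FLAG M2 antibody from a nuclear fraction and from a fraction that the labels call Total, while the protocol speaks of a cytoplasmic one. Doxycycline had been added at 2.5 ug/ml for 15 h or left out, which made 4 groups of 3 libraries and 12 libraries in all, namely nuclear with doxycycline, total with doxycycline, nuclear without and total without it. All groups carried the transgene, so the cells without doxycycline were a control for what the antibody and beads retained when the tagged protein was not induced. Whether the line was 1 clone, and whether the Total fraction held nuclei, is not given in the labels used here.

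The table held 1 authors' mean count per group, so no difference has a replicate check and no test was made. Errors are 95% counting intervals on the reads of a group. They cover counting error only, since 1 mean per group shows no spread between libraries. No molecular identifiers told PCR copies from molecules, so the intervals may be too narrow even for counting error. The sum over all miRNA entries averaged 400794 nuclear and 539627 total reads per library with doxycycline, against 36329.9 nuclear and 16053.4 total reads without it. A single entry outside the cluster, miR-805, took 3.27% and 0.833% of these reads with doxycycline but 63.7% and 33.3% without it. Entries of the miR-290 to miR-295 cluster, the typical miRNAs of mouse embryonic stem cells, summed to 44.8% of nuclear and 49.0% of total reads after doxycycline, against 6.22% and 13.4% in its absence (miR-294, miR-295, miR-291a-3p, miR-293 and miR-290-3p). More AGO2 recovered per cell, more cells and deeper sequencing cannot be told apart in such reads.

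Sfmbt2 encodes a Polycomb group protein and is imprinted in mouse, with the paternal copy active in early embryos and placenta. Its intron gained a large block of miRNA hairpins in rodents, and mouse work links that block to growth of the placenta. A hairpin is cut to a duplex of its 5p and 3p arms, AGO2 keeps 1 strand as the guide that pairs with target RNA, and older names mark the strand that is less often kept with a star. The seed, near the 5′ end of the guide, is the stretch that finds the target.

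Among RefSeq miRNA genes on GRCm38, the assembly also named mm10, 82 hairpin genes carried these names as symbol or synonym. Of these, 72 lay inside Sfmbt2 as annotated in GENCODE vM21 (chr2:10370510-10595253, plus strand). None was exonic. All 72 fell in the intron between exons 11 and 12 (chr2:10461473-10523944, 62.5 kb), where they spanned 51.6 kb with a median of 296 bp between the starts of neighbours. There were 5 miR-297, 24 miR-466, 14 miR-467 and 29 miR-669 genes. Over much of the block the order was a repeat, with a miR-467, a miR-466 and a miR-669 hairpin in a row 12 times, which took 36 of the genes.

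**Figure D1:**
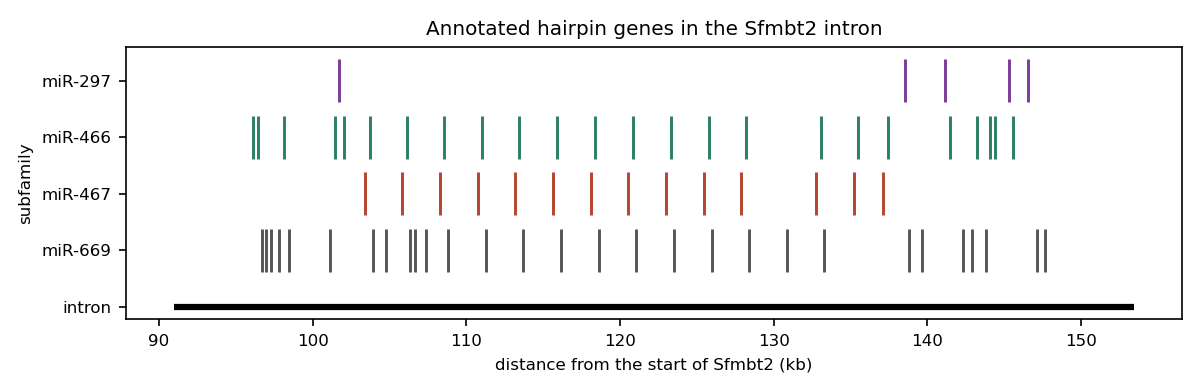
Position of the 72 annotated hairpin genes in the Sfmbt2 intron, as distance from the start of the gene in kb (x axis), with a row for each subfamily (1 mark per hairpin gene) and the intron as a black bar. The regular spacing of the miR-467, miR-466 and miR-669 marks is the repeat, and the 5 miR-297 genes stand apart from it.

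The name of the cluster did not hold for every entry. Of the 54 entries, 40 had annotated hairpins in the intron only and 5 had hairpins both there and elsewhere, which were miR-297a, miR-297a*, miR-466f, miR-466f-5p and miR-466f-3p. The 7 entries miR-466i, miR-466j, miR-466k, miR-467f, miR-467g, miR-467h and miR-669n had a hairpin on another chromosome only, 5 of them within an intron (Cdk13 for miR-466i, Gm37240 for miR-466k, Fxr2 for miR-467f, Grk4 for miR-467g and Slc30a7 for miR-669n). miR-466a-5p and miR-466a-3p matched no gene of their own name, though a gene named Mir466, without a letter, lies in the intron. The 7 outside entries added 23.8 reads to the nuclear and 13.3 to the total fraction with doxycycline, and 17.0 and 0.857 reads without it. Entries matched by name to a hairpin in the intron held 98.6% of the cluster's nuclear and 98.4% of its total reads with doxycycline, against 81.4% and 92.5% without it. These shares leave out the 2 miR-466a entries, which summed to 49.3 nuclear and 89.9 total reads with doxycycline and 19.35 and 12.2 without it. The lower shares without doxycycline are therefore not only reads of hairpins elsewhere.

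The mature strands of those 7 outside entries, from RefSeq on GRCm38.p6, show the letter pattern of the hairpins and how far apart their seeds are. They are written 5′ to 3′ with the seed, bases 2 to 8, in capitals.
miR-466k: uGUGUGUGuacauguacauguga
miR-466j: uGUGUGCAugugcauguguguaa
miR-466i: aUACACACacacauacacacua
miR-467f: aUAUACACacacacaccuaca
miR-467g: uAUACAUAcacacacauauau
miR-467h: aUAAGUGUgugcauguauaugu
miR-669n: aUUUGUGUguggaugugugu
No 2 of these 7 seeds were the same. miR-466k, miR-466j, miR-467h and miR-669n were rich in UG and GU steps, while miR-466i, miR-467f and miR-467g were runs of CA and AC with neither UG nor GU. miR-466i had 15 CA or AC steps among its 21 dinucleotides, and miR-466j had 14 UG or GU steps among 22. The longest stretch in which purine and pyrimidine alternated was 22 bases in miR-466k and miR-466j, 21 in miR-467g, 20 in miR-466i, 18 in miR-467h, 16 in miR-467f and 8 in miR-669n. Among 1672 other mature miRNAs of the same table the median was 4, and 2.99% reached 8 bases. They lie at chr3:85467396-85467418 (miR-466k, plus strand), chr10:60960802-60960824 (miR-466j, plus), chr13:17747552-17747573 (miR-466i, plus), chr11:69635419-69635439 (miR-467f, minus), chr5:34732872-34732892 (miR-467g, minus), chr9:115381898-115381919 (miR-467h, plus) and chr3:115979905-115979924 (miR-669n, plus).

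For miR-297a, the most counted entry in the nuclear fraction with doxycycline, the hairpin on chromosome 7 (Mir297-1, chr7:10958437-10958512, minus strand) shows the same pattern over a longer stretch, with the longest alternation of purine and pyrimidine, 50 of its 76 bases, in capitals.
Mir297-1: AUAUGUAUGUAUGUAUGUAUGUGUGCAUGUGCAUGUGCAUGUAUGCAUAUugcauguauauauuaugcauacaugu
This is 1 of 4 hairpin genes of miR-297a, and the other 3 lie in the Sfmbt2 intron.

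Many counts of the cluster were not what plain averages of whole reads would be. A mean over 3 libraries of whole reads becomes whole when multiplied by 3. In the cluster the product was not whole, to within 1e-06, for 48 of 54 entries (88.9%) in the nuclear fraction and 41 (75.9%) in the total one with doxycycline, and for 44 (81.5%) and 19 (35.2%) without it. Over all 689 entries it was not whole for 21.6%, 17.1%, 19.4% and 8.56% in the same order. Multiplied by 300, 100% of the values were whole to within 0.0001.

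By subfamily, the means of all 6 miR-297 and all 20 miR-466 entries were not whole after multiplication in the nuclear fraction with doxycycline, against 10 of 12 for miR-467 and 12 of 16 for miR-669. In the total fraction with doxycycline this held for 5, 17, 11 and 8 entries, in the nuclear fraction without it for 5, 19, 9 and 11, and in the total fraction without it for 4, 11, 3 and 1. Only 3 of the 54 entries (miR-669g, miR-669h-5p and miR-669j) were whole in every column, and 18 were whole in none. miR-297b-3p and miR-297c* had the same value in each column, as did miR-466c-3p and miR-466e-3p, and miR-467a* and miR-467d*. miR-467a and miR-467b had the same value in 3 columns and differed by under 1 read in the nuclear fraction with doxycycline. Values of single entries are uncertain where a near-identical copy exists, and whether reads were divided between entries was not tested.

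With doxycycline the cluster made up a little over 1% of all miRNA reads in both fractions. Its sum was 5076 reads in the nuclear fraction and 6637 in the total one, a share of 1.27% (Wilson interval 1.25 to 1.29) and 1.23% (1.21 to 1.25) of all miRNA reads. Without doxycycline the sum was 196 and 173 reads, a share of 0.538% (0.497 to 0.584) in the nuclear and 1.08% (0.991 to 1.18) in the other fraction. With miR-805 left out of the totals the order turned in both fractions, to 1.31% nuclear and 1.24% total with doxycycline against 1.48% nuclear and 1.62% total without it.

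All 54 entries had reads in both fractions with doxycycline, and 52 in the nuclear fraction and 42 in the total one without it. A mean of at least 10 reads was reached by 33 and 34 entries with doxycycline and by 3 and 5 without it. For the 12 entries at 0 in total reads without doxycycline, a count of 0 allows up to 62.3 CPM (reads scaled to a common total), and for the 2 in the nuclear fraction up to 27.5 CPM. The 20 entries that reached 10 reads in no column summed to 80.9 and 47.0 reads with doxycycline and 23.9 and 2.09 without it, with no entry above 8.94. Among them were the -3p and star entries miR-297b-3p, miR-297c*, miR-466b-3-3p, miR-467b*, miR-467e* and miR-669h-3p, and also miR-669a, which had 4.01 and 3.54 reads with doxycycline and 0.527 and 0 without it although 12 hairpin genes carry its name. miR-467e, with 1 hairpin gene, had 416 and 668 reads with doxycycline, so reads did not follow the number of annotated copies in this pair, which was picked after its values were seen.

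The 4 subfamilies took unlike parts of the cluster, and the mix differed between groups. miR-467 led with doxycycline, with 43.7% of the cluster's nuclear and 47.7% of its total reads, and had 20.5% and 45.5% without it. For miR-297 the shares were 26.2% and 15.6% with doxycycline, against 8.03% and 5.56% without it. miR-669 had 11.5% and 19.5% with doxycycline, against 14.5% and 5.23% without it. For miR-466 the shares were 18.6% and 17.1% with doxycycline, against 57.0% and 43.7% without it. The 5 most counted entries held 57.9% of the cluster's nuclear reads (miR-297a, miR-467a, miR-467b, miR-297c, miR-467e) and 54.5% of its total reads (miR-467a, miR-467b, miR-467e, miR-297a, miR-669d) with doxycycline. Without it they held 47.5% of nuclear reads (miR-466c-5p, miR-466d-5p, miR-466a-5p, miR-669e, miR-467b) and 68.4% of total reads (miR-467a, miR-467b, miR-466c-5p, miR-466d-5p, miR-466a-5p).

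**Figure D2:**
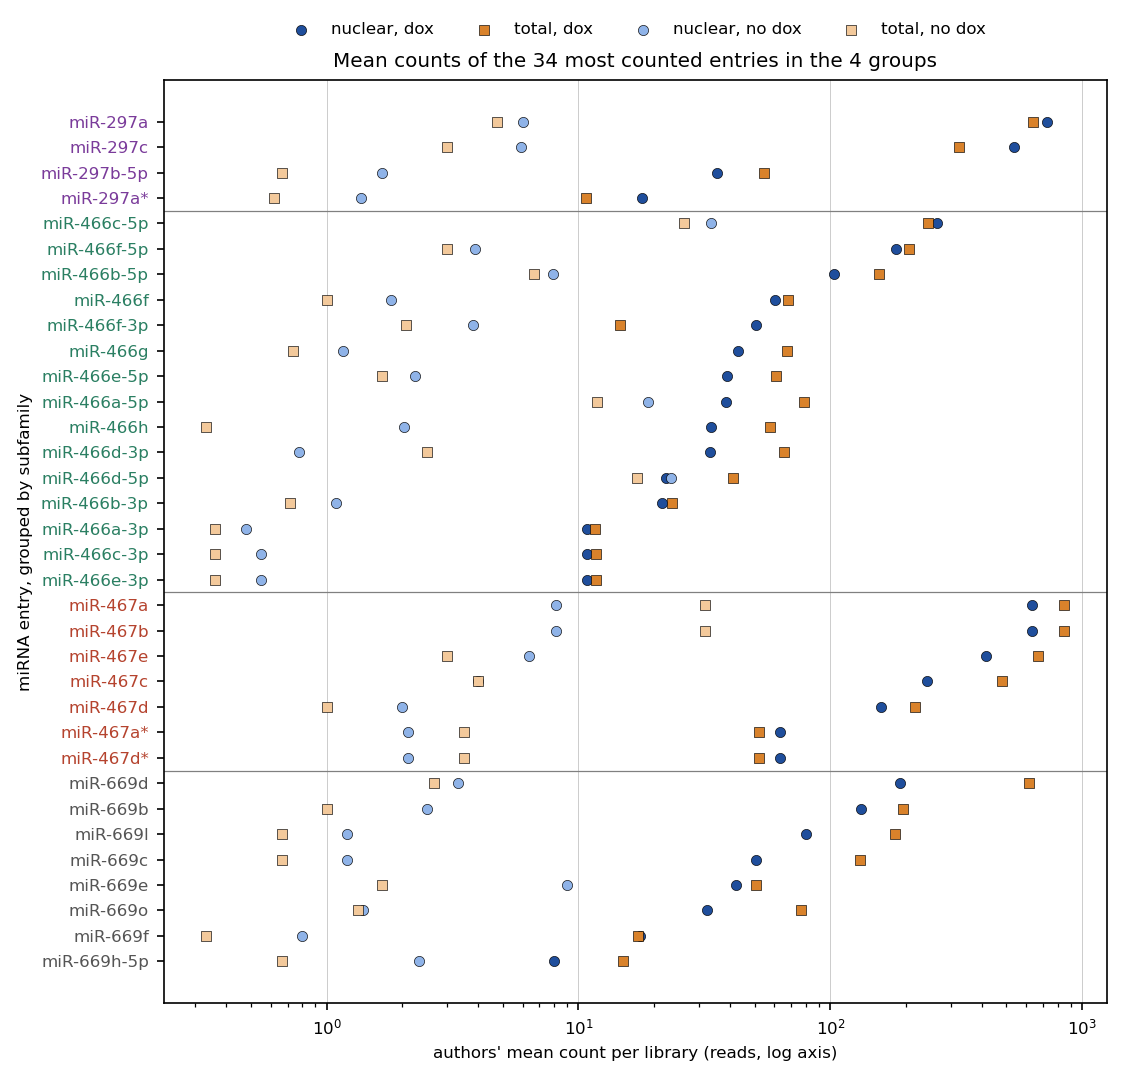
Authors' mean count per library (x axis, reads, log scale) of the 34 entries that reached 10 reads with doxycycline, by subfamily, with 1 point per group (dark circle nuclear and dark square total with doxycycline, pale circle and pale square without it). Dark points lie far right of pale ones for most entries, while for miR-466d-5p (22.2 nuclear and 41.0 total reads with, 23.2 and 17.0 without doxycycline) they lie close together.

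The values of the leading entries follow, by subfamily, as reads per library and without division by length. miR-297a averaged 726 nuclear and 639 total reads with doxycycline, and 6.04 and 4.74 without it. miR-297c had 535 and 324 with doxycycline and 5.91 and 3.00 without it, so both main miR-297 strands were higher in the nuclear than in the total fraction although the nuclear libraries held fewer reads. miR-297b-5p had 35.4 and 54.3 reads with and 1.67 and 0.667 without doxycycline. The star strand and the -3p entry were far lower, with 17.9 and 10.7 reads for miR-297a* and 8.94 and 5.35 for miR-297b-3p with doxycycline, and 1.37 and 0.620 for miR-297a* and 0.353 and 0.310 for miR-297b-3p without it.

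In miR-467, miR-467a averaged 630.1 nuclear and 847 total reads with doxycycline and 8.17 and 31.7 without it, and miR-467b had 629.9, 847, 8.17 and 31.7 reads in the same order. miR-467e followed with 416 and 668 reads with doxycycline and 6.33 and 3.00 without it. miR-467c had 242 and 481 with and 4 and 4 without doxycycline. No other member of the subfamily came near the total reads of miR-467a and miR-467b without doxycycline. miR-467d had 159 and 216 reads with doxycycline and 2.00 and 1.00 without it.

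Total reads exceeded nuclear ones in each of the 5 leading miR-669 entries with doxycycline, as they did for 298 of the 378 miRNAs compared, and the total libraries were the deeper ones. miR-669d had 189.5 nuclear and 617 total reads with doxycycline and 3.33 and 2.67 without it. miR-669b had 132 and 193 with and 2.51 and 1.00 without doxycycline. These 2 were the most counted of the subfamily. miR-669l had 79.9 and 181 reads with doxycycline and 1.20 and 0.667 without it. miR-669c had 50.8 and 131 with and 1.20 and 0.667 without doxycycline. The same order of the fractions held for miR-669o, at 32.4 and 76.4 reads with and 1.39 and 1.33 without doxycycline.

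In miR-466 the entries named -5p led. miR-466c-5p averaged 266 and 244.5 reads with doxycycline and 33.6 and 26.3 without it. miR-466f-5p had 181 and 204 with and 3.88 and 3.00 without doxycycline. With doxycycline the levels of these entries were of like size, and without it miR-466c-5p was far above miR-466f-5p. miR-466b-5p had 103 and 157 reads with doxycycline and 7.92 and 6.67 without it. miR-466f, listed beside its own -5p and -3p entries, had 60.4 and 68.0 with and 1.80 and 1.00 without doxycycline. Finally, miR-466a-5p had 38.5 and 78.2 reads with doxycycline and 18.9 and 11.8 without it, a high level without the induced protein for an entry of its size.

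Nuclear and total AGO2 with doxycycline were set side by side to see whether nuclear AGO2 held the same members of the cluster. As a whole the cluster did not stand to 1 side, but the summed reads of its subfamilies did, with miR-297 higher in nuclear and miR-669 higher in total AGO2. The miR-297 sum was mostly miR-297a and miR-297c, which held 1261 of its 1332 nuclear and 962 of its 1038 total reads. In the miR-669 sum, miR-669d alone held 189.5 of 584 nuclear and 617 of 1296 total reads. The log2 fold of nuclear over total, scaled to the bulk of the miRNAs (TMM), was 0.03 (-0.00 to 0.06) for the summed cluster. For the summed subfamilies it was 0.77 (0.71 to 0.84) for miR-297, 0.15 (0.08 to 0.22) for miR-466, -0.10 (-0.15 to -0.06) for miR-467 and -0.74 (-0.82 to -0.66) for miR-669. None of these 4 signs turned under the other scalings tried. With the reads found without doxycycline subtracted they were 0.77, 0.07, -0.09 and -0.80.

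Folds were computed for 34 members with a mean of at least 10 reads in either column, 33 of which reached it in both and miR-669h-5p in the total fraction only. At least 2-fold higher in nuclear AGO2 were 3 of the 34, where 10.3% of the 378 miRNAs compared were, and 1 was at least 2-fold lower, where 3.97% of all were. The counts of members are thus near those of all miRNAs. Their median log2 fold was -0.02, against -0.04 over all 378.

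miR-466f-3p lay furthest to the nuclear side, with 50.7 nuclear and 14.6 total reads and a log2 fold of 2.21 (1.71 to 2.72). Next were miR-297a* at 1.15 (0.51 to 1.85) and miR-297c at 1.14 (1.02 to 1.25). miR-669d, whose total reads were more than 3 times its nuclear ones, was the member on the other side, at -1.29 (-1.43 to -1.15). These 4 intervals excluded no change. Against nuclear pull-downs without doxycycline, the scaled log2 fold was -0.23 (-1.05 to 0.86) for miR-466f-3p and -0.26 (-1.65 to 1.72) for miR-297a*. Neither thus stood above that control, while miR-297c did, at 2.54 (1.85 to 3.27).

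Within 2-fold lay the other 30, among them miR-297a at 0.60 (0.51 to 0.69), miR-466c-5p at 0.54 (0.39 to 0.68) and miR-467c at -0.58 (-0.71 to -0.45). miR-467a and miR-467b did not differ between the fractions beyond counting error, at -0.01 (-0.10 to 0.07) each. In miR-669, 6 of 8 members lay below 0, as did 205 of the 378 miRNAs compared, and the subfamily's median was -0.63. Among the 6 were miR-669c at -0.95 (-1.24 to -0.68), miR-669o at -0.82 (-1.18 to -0.48) and miR-669l at -0.77 (-0.99 to -0.54). The other 2, miR-669f at 0.44 (-0.14 to 1.02) and miR-669e at 0.15 (-0.20 to 0.50), had intervals that held no change. The median was 0.87 over the 4 miR-297 members, 0.24 over 15 of miR-466 and -0.01 over 7 of miR-467. miR-297b-5p was the miR-297 member below 0, at -0.20 (-0.57 to 0.15).

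**Figure D3:**
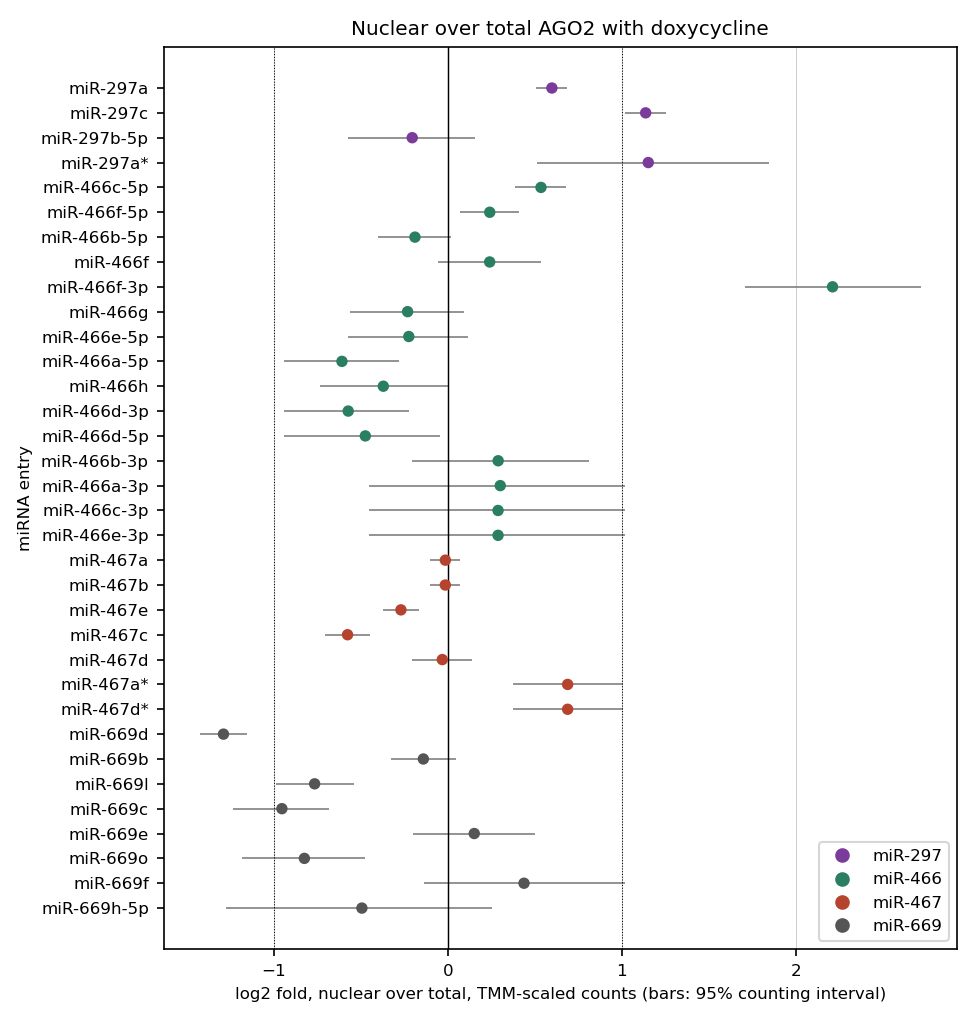
Log2 fold of nuclear over total AGO2 with doxycycline (x axis, TMM-scaled mean counts) for the 34 compared members, coloured by subfamily, with bars for the 95% counting interval and dotted lines at 2-fold. miR-466f-3p at 2.21 stands furthest right and miR-669d at -1.29 furthest left, and most miR-669 points lie left of 0.

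Folds were also described by name suffix, with the members that passed the minimum. A name without a suffix does not give the arm, as the unsuffixed miR-466i and miR-467h were of the 3p arm. The groups below, inside and outside the cluster, are therefore groups of names and not of arms. Of the 9 members named -3p or with a star, 8 had a log2 fold above 0 (median 0.30), against 7 of the 25 named -5p or without a suffix (median -0.20). These 9 are not independent, as miR-467a* and miR-467d* had the same values, and so did miR-466c-3p and miR-466e-3p. The counting intervals of miR-466a-3p, miR-466b-3p, miR-466c-3p and miR-466e-3p held no change. Over entries outside the cluster, 30 of 99 named -3p or with a star lay above 0 (median -0.19), and 128 of 245 of the others (median 0.03). The ratio of the -5p or unsuffixed strand to its -3p or star partner could be formed for 14 pairs of entries. It was larger in total than in nuclear AGO2 in 12 of the 14, with counting intervals that did not overlap in 5, and in no pair did the intervals part the other way. Over 139 such pairs outside the cluster it was larger in total AGO2 in 66, with intervals apart in 15, and apart the other way in 27. The pairs of the cluster are not independent, as the partners miR-467a* and miR-467d*, miR-297b-3p and miR-297c*, and miR-466c-3p and miR-466e-3p had the same values.

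The miR-466f hairpin gave 3.57 -5p reads per -3p read (2.98 to 4.31) in nuclear and 14.0 (10.3 to 19.4) in total AGO2. For miR-467e over miR-467e* the ratio was 61.96 (40.3 to 103) in nuclear and 213 (117 to 488) in total AGO2, where the star strand had 6.72 and 3.14 reads. miR-467a over miR-467a* gave 10.02 (8.61 to 11.7) and 16.3 (13.9 to 19.3). The other pairs whose intervals parted were miR-467d and miR-669h. miR-297c over miR-297c* had overlapping intervals in the fractions, at 59.8 (40.7 to 90.4) and 60.4 (37.2 to 107).

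Nuclear AGO2 with doxycycline was then set against nuclear pull-downs without it, the control for the induced protein. After scaling, the summed reads of miR-297 and miR-467 stood above those without doxycycline and the summed reads of miR-466 below them, while the direction for miR-669 depended on the scaling. Summed nuclear reads with doxycycline were 26.0 times those without it for the cluster, 84.9 times for miR-297, 55.3 for miR-467, 20.6 for miR-669 and 8.47 for miR-466, where all miRNAs together had 11.0 times.

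After scaling, the log2 fold was 2.44 (2.03 to 2.89) for miR-297, 1.83 (1.57 to 2.10) for miR-467 and -0.88 (-1.04 to -0.71) for miR-466. It was 0.40 (0.09 to 0.73) for miR-669 and 0.74 (0.62 to 0.86) for the cluster, but both turned sign, to -0.51 and -0.18, when totals without miR-805 were used for scaling. That scaling moved the median of all miRNAs, 0.05 here, to -0.87, and totals with miR-805 moved it to 0.55. A scaling shifts every fold alike, so the distance of the cluster from these medians was the same under each. The TMM-scaled median over the 15 miR-466 members compared was 0.34, with 10 above 0, so most members did not share the lower sum.

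Of 33 members compared, 30 passed the minimum of 10 reads through the doxycycline column alone, so more reads with doxycycline were a condition for them. At least 2-fold higher with doxycycline were 15, where 30.5% of the 371 miRNAs compared were, and 3 were at least 2-fold lower, where 33.7% of all were. With totals as the scaling these counts became 19 and 3, and with totals without miR-805 they became 8 and 7, while over all miRNAs 113 higher and 125 lower became 151 and 107, and 60 and 171. The counting interval excluded no change for 11 of the 15 and for all 3. The members' median log2 fold was 0.93, against 0.05 over all 371. How many of the 371 passed the minimum through the doxycycline column alone was not counted, so the members and all miRNAs may have been selected unlike.

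The members furthest up were miR-297a at 2.95 (2.29 to 3.71), miR-297c at 2.54 (1.85 to 3.27) and miR-467d at 2.35 (1.22 to 3.80). miR-467a and miR-467b had 2.31 (1.76 to 2.98) each. Furthest down were miR-466d-5p at -4.03 (-4.56 to -3.54), miR-466a-5p at -2.93 (-3.41 to -2.45) and miR-669e at -1.73 (-2.34 to -1.07). miR-466d-5p averaged 22.2 nuclear reads with doxycycline and 23.2 without it, so its reads were close in number although the libraries with doxycycline were far deeper. miR-669e had 42.4 nuclear reads with and 9.02 without doxycycline.

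In the total fraction the summed reads of miR-297 and miR-669 stood above the pull-downs without doxycycline after scaling. The summed reads of miR-466 stood below them, and miR-467a and miR-467b did not stand above them. Summed total reads with doxycycline were 38.3 times those without it for the cluster, 143 times for miR-669, 108 for miR-297, 40.2 for miR-467 and 15.0 for miR-466, where all miRNAs together had 33.6 times. Scaled log2 folds were 2.15 (1.62 to 2.76) for miR-669, 1.74 (1.21 to 2.32) for miR-297 and -1.11 (-1.30 to -0.90) for miR-466. For miR-467 and the cluster they were 0.32 (0.13 to 0.51) and 0.25 (0.12 to 0.38), and both turned sign, to -0.31 and -0.38, with totals without miR-805 as the scaling, which moved the median of all miRNAs from 0.04 to -0.59. The TMM-scaled median over the 15 miR-466 members compared was 0.02, with 9 above 0, so most members did not share the lower sum. Of the 75.8 total miR-466 reads without doxycycline, miR-466c-5p had 26.3, miR-466d-5p 17.0 and miR-466a-5p 11.8.

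Here 34 members were compared, 29 of them through the doxycycline column alone. At least 2-fold higher with doxycycline were 14, where 31.8% of the 359 miRNAs compared were, and 6 were at least 2-fold lower, where 32% of all were. With totals without miR-805 as the scaling these became 10 and 9, and over all miRNAs 114 higher and 115 lower became 70 and 143. The interval excluded no change for 10 of the 14 and for 4 of the 6. The members' median log2 fold was 0.10, against 0.04 over all 359, for which the number that passed through the doxycycline column alone was not counted either.

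miR-669l had the highest log2 fold of total AGO2 with over without doxycycline, at 3.07 (1.21 to 6.12), then miR-669d at 2.84 (1.86 to 4.06) and miR-467e at 2.79 (1.86 to 3.92). Lowest were miR-466d-5p at -3.74 (-4.22 to -3.24), miR-466a-5p at -2.29 (-2.81 to -1.76) and miR-466f-3p at -2.19 (-3.37 to -0.61), the last on 14.6 reads with and 2.06 without doxycycline. miR-467a and miR-467b were at -0.27 (-0.56 to 0.04) each, on 847 reads with and 31.7 without doxycycline, while miR-467e, miR-467c and miR-467d lay between 1.90 and 2.79. The doxycycline columns of these comparisons are the same as those set against each other above, so their folds are given side by side only.

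**Figure D4:**
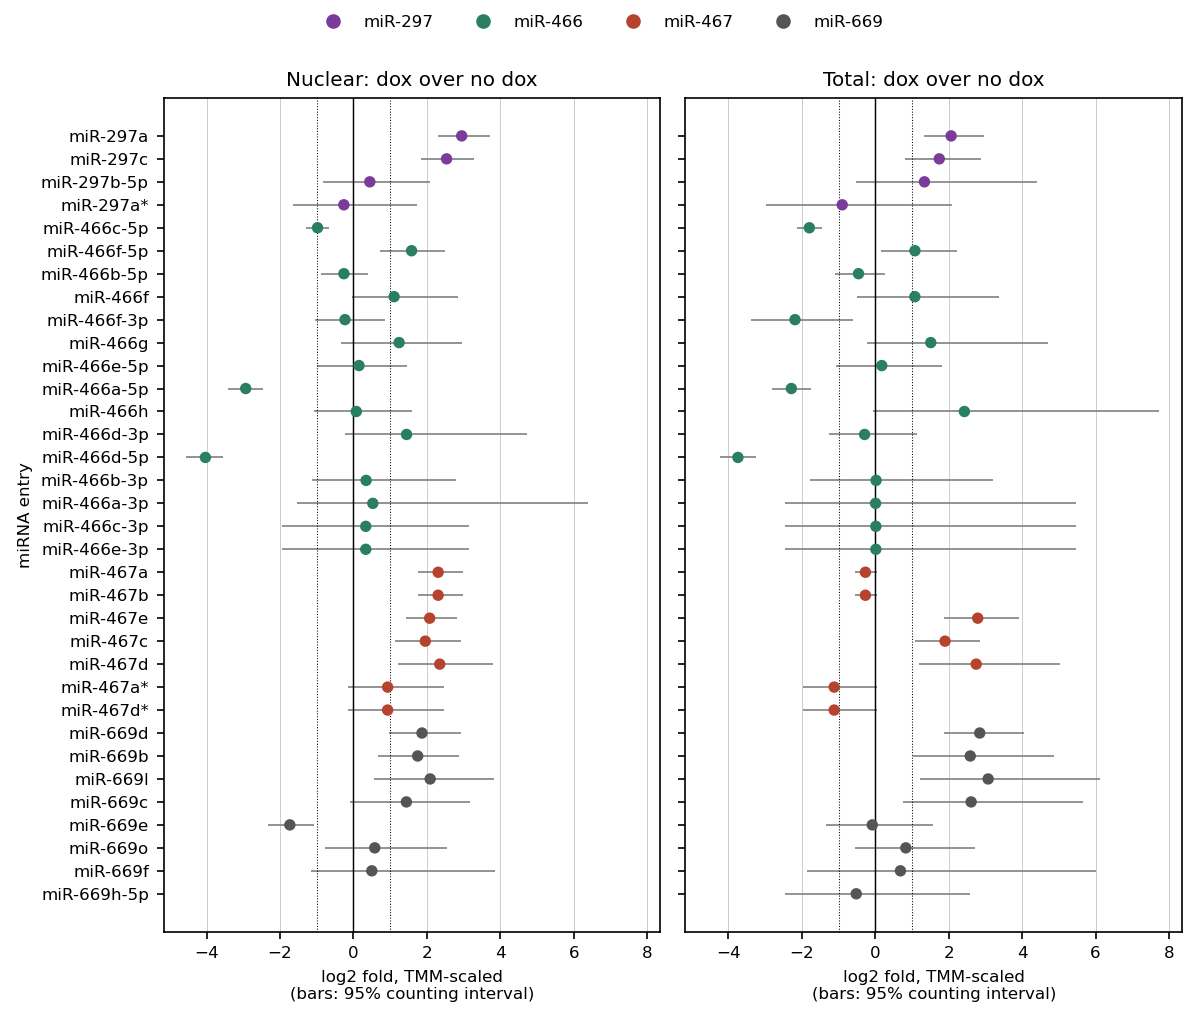
Log2 fold with over without doxycycline (x axes, TMM-scaled mean counts) in the nuclear (left, 33 members) and total (right, 34 members) fraction, coloured by subfamily, with 95% counting intervals as bars and dotted lines at 2-fold. miR-466d-5p and miR-466a-5p lie far left in both panels, and miR-467a and miR-467b lie at 2.31 in the left and -0.27 in the right panel.

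The -5p entries held most miR-466 reads in each group, with 68.9% of nuclear and 69.3% of total miR-466 reads with doxycycline, against 80.5% and 87.7% without it. The reads without doxycycline were 105% of those with it in the nuclear fraction and 41.5% in the total one for miR-466d-5p, 49.0% and 15.1% for miR-466a-5p, and 12.6% and 10.8% for miR-466c-5p. For miR-297a the same shares were 0.831% and 0.741%, for miR-467a 1.30% and 3.74%, for miR-669d 1.76% and 0.432%, and for miR-669e 21.3% and 3.28%. The median log2 fold of the 6 miR-466 -5p members with over without doxycycline was -0.62 in the nuclear fraction and -1.13 in the total one, and that of the 9 other miR-466 members compared was 0.35 and 0.02. miR-466f-5p did not follow the group, at 1.58 (0.72 to 2.50) and 1.08 (0.15 to 2.22).

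The miR-466d hairpin had a ratio of -5p to -3p reads that differed with doxycycline. Its -5p entry had 0.668 reads per -3p read (0.481 to 0.919) in nuclear and 0.624 (0.494 to 0.786) in total AGO2 with doxycycline, against 29.8 (9.33 to 295) and 6.82 (3.29 to 19.0) without it. For miR-466a the ratio was 3.57 and 6.71 with and 39.3 and 32.9 without doxycycline, with intervals that overlapped in the total fraction. For miR-466c (24.7 and 20.8 with, 61.5 and 73.1 without), miR-466b (4.79 and 6.68 with, 7.29 and 9.30 without) and miR-466e (3.63 and 5.18 with, 4.12 and 4.63 without) the intervals with and without doxycycline overlapped in both fractions. miR-466f had the opposite order, with 3.57 and 14.0 with and 1.02 and 1.46 without doxycycline. The miR-466d -3p entry had 0.780 and 2.49 reads without doxycycline, so these ratios rest on few reads of that arm. Whether reads shared with other entries had a part in these ratios was not tested. The groups without doxycycline are the control, and whether their reads were strands held by AGO2 was not tested either.

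**Figure D5:**
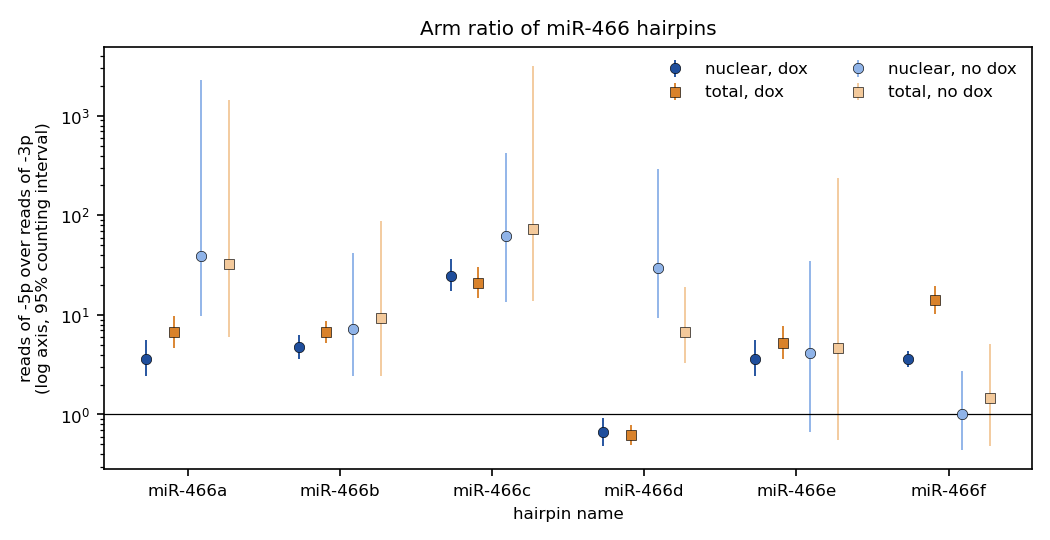
Reads of the -5p entry per read of the -3p entry (y axis, log scale) for 6 miR-466 hairpins in the 4 groups, with 95% counting intervals as bars and a line at equal reads. miR-466d lies below the line with doxycycline (0.668 and 0.624) and above it without (29.8 and 6.82), and miR-466f is higher in total (14.0) than in nuclear AGO2 (3.57) with doxycycline.

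Without doxycycline, nuclear and total pull-downs could be compared for 5 members only. None was at least 2-fold higher in the nuclear fraction, where 23.8% of the 189 miRNAs compared were, and 2 were at least 2-fold lower, where 16.9% of all were. Those 2 were miR-467a and miR-467b at -2.38 (-3.12 to -1.75) each, with 8.17 nuclear and 31.7 total reads, and since their values were the same in both columns they amount to 1 observation. miR-466a-5p at 0.25 (-0.39 to 0.88), miR-466d-5p at 0.02 (-0.51 to 0.58) and miR-466c-5p at -0.08 (-0.51 to 0.37) did not differ between the fractions beyond counting error.

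Summed over subfamilies, nuclear over total without doxycycline had a log2 fold of -1.40 (-1.74 to -1.09) for miR-467, 1.22 (0.59 to 1.91) for miR-669 and -0.25 (-0.43 to -0.08) for the cluster, which turned to 0.28 without miR-467a and miR-467b. For miR-466 at 0.13 (-0.12 to 0.38) and miR-297 at 0.28 (-0.43 to 0.99) the interval held no change, and with totals as the scaling they turned to -0.62 and -0.48. That scaling moved the median of all miRNAs from -0.09 to -0.84, and the counts over all of them from 45 higher and 32 lower to 29 and 76. The miR-669 sum rested on 28.3 nuclear and 9.07 total reads, of which miR-669e alone had 9.02 and 1.67. In 4 of the 54 entries, miR-466d-5p, miR-466k, miR-467f and miR-467g, nuclear reads without doxycycline were more than those with it, and in the total fraction this held for 0 of 54. The last 3 of these have their hairpin outside Sfmbt2 and had at most 7.26 nuclear reads without doxycycline. Among entries that passed the minimum, nuclear reads were fewer with doxycycline for 1 of 33 members and 41 of all 371 miRNAs compared. In the total fraction this was so for 0 of 34 members and 12 of all 359.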

How the data were processed

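AGO2-bound small RNAs were sequenced in 12 libraries of 4 groups. The tools named in the submitters' processing notes are TopHat and bcl2fastq 2.17.1, with the genome build mm10. Neither the counting step nor the handling of reads that match several miRNAs is given in the sources used here. The authors deposited estimated counts (expected counts) as 1 mean per group. That 3 libraries went into each mean was read from the values.

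The planned quasi-likelihood test of edgeR needs counts per library and was not run. Mean counts were scaled with TMM factors (edgeR 4.0.16, R 4.3.3) over entries with a mean of at least 10 in 1 of the compared columns. Log2 folds have 95% Clopper-Pearson intervals on mean counts times 3. A 2-fold difference is a rule of size, and 3 reads over a group is the floor of a count of 0. Shares have 95% Wilson intervals.

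Named with full values were the 5 most counted members of each subfamily, members past 2-fold between the fractions with doxycycline, and the 3 highest and 3 lowest folds of each doxycycline comparison. The members and lists were chosen with earlier results of these data known. Scaling, minimum count, fold size, miR-805, divided reads and subtraction of reads without doxycycline were varied. Computation used Python 3.11.15 with pandas 2.3.3, numpy 2.4.6, SciPy 1.17.1 and, for figures, matplotlib 3.10.9. Hairpin genes were taken from RefSeq, and host genes and exons from GENCODE vM21. RefSeq tables gave a mature sequence for 7 of the 54 members.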

Additional observations from a re-analysis of the deposited data

How the results depend on the processing

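No paired analysis was possible because the table holds 1 mean per group, and for the same reason leaving out a library was not run. Summing entries of 1 mature sequence was not run either, as few mature sequences were held. The 3 alternatives that left out named entries or counted identical ones once were chosen after seeing the data. Of the counts, sums and shares, 70 values stayed within 1.5 times the count or within the counting interval of the value reported, 33 did not and 4 sums turned sign. Of the medians and single members 236 stayed within an interval that is often wide and 33 did not, and 10 of 34 medians and 20 of 235 folds of single members turned sign. With totals without miR-805 the median for total AGO2 with over without doxycycline was -0.53, against 0.10, and that for nuclear AGO2 was 0.02, against 0.93. The cause of each change was not tested, except that fewer or more entries were counted where the minimum or the entries changed.

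Between nuclear and total AGO2 with doxycycline the 3 higher and 1 lower of 34 members became 17 and 2 of 54 with no minimum count. At 1.5-fold they became 6 and 5 of 34, and the 1 lower became 3 with reads without doxycycline subtracted. Only 1 compared member was whole after multiplication by 3 in both columns, and it was in neither count, so that setting decides nothing. Here and below, counts over all miRNAs are at hand for the scalings only. The other counts have no share to stand beside and are not results about the members. The summed log2 fold of 0.03 became 0.065 with median-of-ratios factors, 0.078 with totals without miR-805 and 0.25 with whole entries only.

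For nuclear AGO2 with over without doxycycline the 15 higher of 33 members became 8 with totals without miR-805. The 3 lower ones became 7 with totals without miR-805, 17 of 52 with no minimum and 1 of 27 without the -5p entries of miR-466. Only 1 compared member was whole in both columns, and it was among the higher. The sum of 0.74 became 1.23 with totals, -0.18 with totals without miR-805, 1.04 with whole entries, 0.45 without miR-467a and miR-467b and 1.42 without the miR-466 -5p entries.

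For total AGO2 with over without doxycycline 14 of 34 members were higher and 6 lower. The 6 lower became 17 of 49 with no minimum and 3 of 28 without the miR-466 -5p entries. Of the 4 compared members that were whole in both columns, 2 were higher and 1 was lower. The sum of 0.25 became -0.38 with totals without miR-805, 0.48 without miR-467a and miR-467b and 0.76 without the miR-466 -5p entries.

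Between the fractions without doxycycline the 0 higher and 2 lower of 5 became 8 and 5 of 46 with no minimum. The 2 lower became 0 of 3 without miR-467a and miR-467b. The sum of -0.25 became -1.005 with totals, 0.40 with whole entries and 0.28 without miR-467a and miR-467b. No compared member was whole in both columns, so the 0.40 rests on entries below 10 reads. Shares of the cluster without miR-805 in the totals were 1.31%, 1.48% and 1.62% for nuclear with, nuclear without and total without doxycycline. Depth limits the groups without doxycycline most, where 3 and 5 members reached 10 reads.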
